A study of Homo sapiens with 15 samples.

Results

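Genes lowest with non-silencing siRNA are 10 genes, HABP4, TPM4, G3BP2, MED11, NOLC1, OGFR, EMC6, KLHDC10, WBP4 and MAPK6, of 14884 named genes measured in HEK293T cells. They were picked because their values with each of 4 targeting siRNAs lay above those with the non-silencing siRNA in the same arrays, so their differences from non-silencing are described here and not tested. Each of the 10 is represented by 1 named probe set, and all 10 were measured. HEK293T is a line derived from human embryonic kidney that carries a viral large T antigen. In all 5 groups the cells were transfected with siRNA, kept for 48 hours and then exposed for 4 hours to actinomycin D (1 ug per mL), which blocks transcription, before total RNA was taken, so a value reflects the level before the drug and the decay under it. The groups, with 3 arrays each, received siRNA against LOC550643 (a pool of 4, against the transcript of the small P-body protein NoBody), Dcp2 (the mRNA decapping enzyme), DcpS (an enzyme that degrades the freed cap) or GAPDH (a glycolytic enzyme), or a non-silencing siRNA directed at no human gene. The labels do not say whether the 3 samples of a group were separate cultures, so the spread may be technical. Untransfected cells are not among these 15 arrays, so a lower level with non-silencing siRNA and a higher level with each other siRNA cannot be told apart.

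The 10 genes do not form 1 pathway. HABP4 encodes an RNA-binding protein related to SERBP1, which associates with idle ribosomes, and G3BP2 encodes a core protein of stress granules, the cytoplasmic condensates of untranslated mRNA. TPM4 is a tropomyosin that lies along actin filaments. MED11 is a subunit of the Mediator head module, which links transcription factors to RNA polymerase, NOLC1 is a nucleolar chaperone of small nucleolar ribonucleoproteins, and WBP4 is a WW-domain protein of the spliceosome. OGFR is the receptor for opioid growth factor, MAPK6 (ERK3) an atypical MAP kinase, EMC6 a subunit of the complex that inserts membrane proteins at the endoplasmic reticulum, and KLHDC10 a substrate receptor of a CUL2 ubiquitin ligase.

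The stretches just before the transcription start are shown for HABP4, TPM4 and G3BP2, the genes with the largest differences averaged over the 4 siRNAs (1.15, 1.22 and 0.96), and for EMC6, so that they can be compared. With Dcp2 and DcpS siRNA alone, NOLC1 differed by more than G3BP2. They come from RefSeq on GRCh38.p14, run 5′ to 3′ on the gene's strand over the 150 bases that end at the base before the start, and have in capitals the motifs searched, on either strand.
HABP4 (chr9:96450019-96450168, plus strand): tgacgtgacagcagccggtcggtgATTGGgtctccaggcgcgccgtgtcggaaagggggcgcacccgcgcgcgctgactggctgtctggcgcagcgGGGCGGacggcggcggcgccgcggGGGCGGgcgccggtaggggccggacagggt
TPM4 (chr19:16076866-16077015, plus strand): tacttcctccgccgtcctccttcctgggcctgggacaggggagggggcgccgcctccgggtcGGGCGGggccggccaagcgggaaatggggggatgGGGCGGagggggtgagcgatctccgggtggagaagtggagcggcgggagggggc
G3BP2 (chr4:75672702-75672851, minus strand): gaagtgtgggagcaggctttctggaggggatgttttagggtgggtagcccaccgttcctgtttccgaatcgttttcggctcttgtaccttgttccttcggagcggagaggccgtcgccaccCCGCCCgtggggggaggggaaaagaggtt
EMC6 (chr17:3668662-3668811, plus strand): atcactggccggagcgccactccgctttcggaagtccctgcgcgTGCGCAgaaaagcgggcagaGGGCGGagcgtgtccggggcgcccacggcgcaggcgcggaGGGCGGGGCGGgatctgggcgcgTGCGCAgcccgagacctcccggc

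Promoters were found for 8 of the 10 genes, and those of NOLC1 and KLHDC10 are not printed. The search covered 7 motifs on both strands of the 250 bases before the start, and matches that overlapped were all counted. The GC box GGGCGG stood in 7 of the 8, all but MED11, against 42.6% of 35116 promoters of the same length. Those promoters, here as in the shares below, were not limited to the genes measured on these arrays. The CCAAT box (CCAAT) stood in HABP4, G3BP2, EMC6 and WBP4, against 32.0% of promoters, and those of G3BP2 and EMC6 were not within the bases printed. The TATA motif TATAAA stood only in WBP4 (10.7% of promoters), the ETS motif CCGGAA only in MAPK6 (14.5%), and TGCGCA, the core of the NRF1 motif, in MED11 and EMC6 (6.89%). Neither the E-box CACGTG (6.34%) nor the AP-1 motif TGACTCA (4.2%) was found in these windows. The median GC content of the 8 windows was 72.2%, with 58.0% as the median over all promoters, and OGFR and HABP4 had the highest, at 78.0% each. A match is a description of the letters, and its part in the levels was not tested.

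The arrays were alike in scale, with medians over all probe sets between 4.01 and 4.08 log2 units and correlations within groups between 0.983 and 0.991. Of the targeted transcripts that could be read, DCP2 was at 6.34 ± 0.10 with its siRNA and 8.14 ± 0.13 with non-silencing siRNA, and GAPDH at 5.97 ± 0.24 and 7.20 ± 0.10 (SD, n = 3 each). DCP2 was also lower with DcpS siRNA, at 7.60 ± 0.27, a difference of -0.54 from non-silencing (limma adjusted p = 0.0252). For LOC550643 and DCPS no probe set was named, and their knockdown is not analysed here. Of 9 listed markers of the HEK293 line, 6 were measured, and all 6 lay above the array median on every array. IRS4 lay between 8.12 and 9.78 and KRT18 between 8.50 and 8.91. The lowest of the 6 were PAX2, between 5.43 and 5.89, and KRT8, between 5.73 and 6.31. Of 16 markers of blood, liver, muscle, endothelium and fibroblasts, 7 were measured, and ALB, PECAM1, VWF and DCN lay below the array median on every array. APOA1, TTR and DES lay above it on every array, DES between 5.34 and 7.13, a range that held those of PAX2 and KRT8. The array median was taken over all probe sets, most of them unnamed, and lay below the middle of the named genes. By mean level PAX2 was at percentile 52.8 and KRT8 at 59.4, against 42.6 for APOA1, 47.4 for TTR and 60.8 for DES. The share of all genes above the array median on every array was not computed. Non-silencing replicate 1 had the lowest score (-14.6) on the axis that carried 24.7% of the variance of genes within groups, followed by DcpS replicate 1 (-14.0). The other 13 arrays lay between -11.3 and 12.1. The direction of the axis was set so that the deviations of the 10 genes ran with it, so which end counts as lowest follows from that choice.

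Across the 10 genes, the difference from non-silencing siRNA ranged from 0.36 to 1.34 log2 units, or 1.28-fold to 2.53-fold. All 10 genes had the 3 non-silencing arrays below the 12 others, which 0.746% of genes did, and all 10 were higher with all 4 siRNAs at an adjusted p under 0.05 in limma, which 0.101% of genes were. In the single comparisons 0.658% of genes were called higher and 0.907% lower with LOC550643 siRNA. With Dcp2 siRNA 1.05% were called higher and 0.927% lower, with DcpS siRNA 1.76% and 1.85%, and with GAPDH siRNA 0.726% and 1.27%. Those calls chose the 10 genes and are given to describe them. The 4 comparisons share the non-silencing arrays, so they are not independent. The medians of the 10 differences were 0.90 (LOC550643), 0.73 (Dcp2), 0.73 (DcpS) and 0.85 (GAPDH), while the median over all genes lay between -0.01 and 0.00 in these comparisons.

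**Figure D1:**
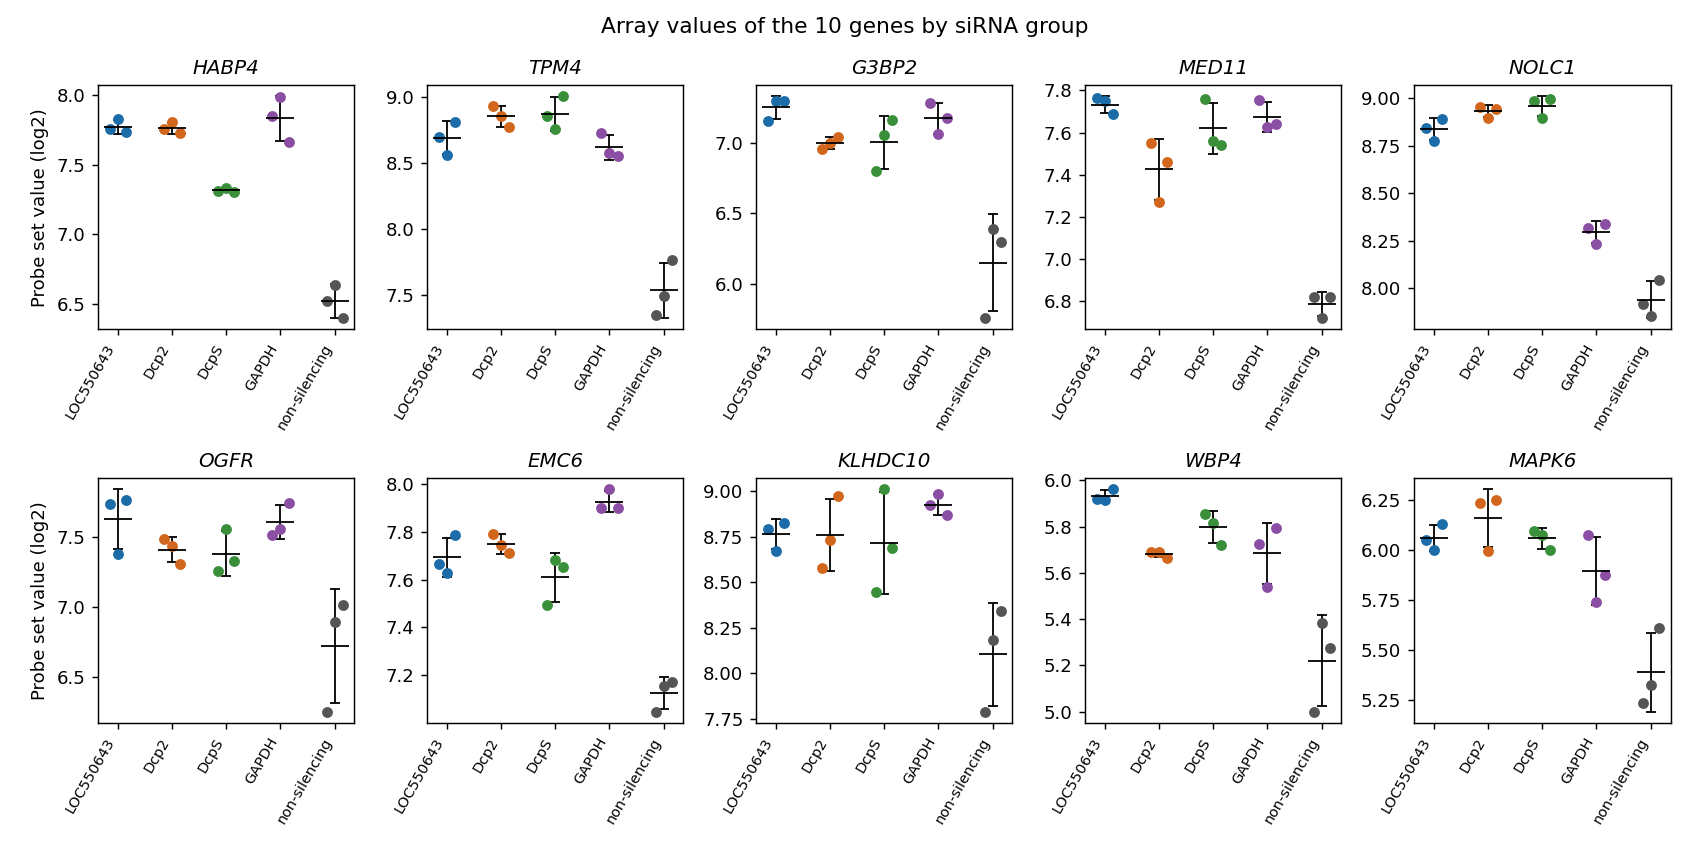
Probe set values in log2 units (vertical axis, a separate scale in each panel) of the 10 genes on each array of the 5 siRNA groups, with the group mean (bar) and SD (whiskers, n = 3). The 3 non-silencing arrays lie below the 12 others in every panel, and NOLC1 with GAPDH siRNA and HABP4 with DcpS siRNA lie between the non-silencing arrays and the rest.

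Among the genes of RNA binding, HABP4 measured 7.76, 7.83 and 7.73 log2 units in LOC550643 replicates 1 to 3 and 7.76, 7.81 and 7.73 in the Dcp2 replicates. Its values were 7.31, 7.34 and 7.31 with DcpS siRNA, 7.85, 7.99 and 7.67 with GAPDH siRNA and 6.52, 6.64 and 6.40 with non-silencing siRNA. The DcpS arrays formed a level of their own, above every non-silencing array and below every array of the other 3 siRNAs. HABP4 was therefore higher than non-silencing by 1.25 (2.39-fold) for LOC550643, 1.25 (2.37-fold) for Dcp2, 0.80 (1.74-fold) for DcpS and 1.32 (2.49-fold) for GAPDH siRNA (SE 0.09 each). G3BP2 measured 7.16, 7.30 and 7.29 with LOC550643, 6.96, 7.0 and 7.04 with Dcp2, 6.80, 7.05 and 7.16 with DcpS and 7.28, 7.06 and 7.17 with GAPDH siRNA. The non-silencing arrays were at 5.76, 6.39 and 6.30. Replicate 1 of the reference was thus the lowest G3BP2 array of all 15, and its distance from the other 2 reference arrays was larger than the range of the targeting group means (0.25). The G3BP2 differences were 1.10 for LOC550643, 0.85 for Dcp2, 0.85 for DcpS and 1.02 for GAPDH siRNA (SE 0.14 each), and 0.91, 0.65, 0.66 and 0.83 without non-silencing replicate 1.

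TPM4, the actin-binding gene, measured 8.70, 8.56 and 8.81 with LOC550643, 8.93, 8.86 and 8.77 with Dcp2, 8.86, 8.76 and 9.01 with DcpS and 8.73, 8.58 and 8.55 with GAPDH siRNA. With non-silencing siRNA it was at 7.35, 7.49 and 7.76. The gap between the lowest targeting array and the highest non-silencing array, 0.79, was the widest of the 10 genes. The TPM4 differences were 1.16 for LOC550643, 1.32 for Dcp2, 1.34 for DcpS and 1.08 for GAPDH siRNA (SE 0.11 each), or 2.23-fold, 2.50-fold, 2.53-fold and 2.12-fold.

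In the nucleus, MED11 measured 7.76, 7.75 and 7.69 with LOC550643, 7.55, 7.27 and 7.46 with Dcp2, 7.76, 7.56 and 7.54 with DcpS and 7.76, 7.62 and 7.64 with GAPDH siRNA. Its non-silencing arrays, at 6.82, 6.72 and 6.82, were the closest together among the 10 genes. The MED11 differences were 0.95, 0.64, 0.83 and 0.89 with LOC550643, Dcp2, DcpS and GAPDH siRNA (SE 0.09 each). For NOLC1 the arrays were at 8.84, 8.78 and 8.89 with LOC550643, 8.95, 8.90 and 8.94 with Dcp2 and 8.98, 8.90 and 8.99 with DcpS siRNA. With GAPDH siRNA NOLC1 was at 8.32, 8.23 and 8.34, and with non-silencing siRNA at 7.92, 7.85 and 8.04. Its GAPDH arrays lay between the reference and the other 3 siRNAs, with a difference from the reference of 0.36 (1.28-fold) against 0.90, 0.99 and 1.02 with LOC550643, Dcp2 and DcpS siRNA (SE 0.08 each). NOLC1 was the only gene of the 10 in which the range of the targeting means (0.66) exceeded the distance from the reference to the lowest targeting mean (0.36). WBP4 measured 5.92, 5.91 and 5.96 with LOC550643, 5.69, 5.69 and 5.67 with Dcp2, 5.85, 5.82 and 5.72 with DcpS and 5.72, 5.54 and 5.79 with GAPDH siRNA. Its reference arrays were at 5.00, 5.38 and 5.28. The differences of WBP4 were 0.71, 0.46, 0.58 and 0.46 (SE 0.10 each) in the same order of siRNAs.

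For the signalling genes, OGFR measured 7.73, 7.38 and 7.76 with LOC550643, 7.48, 7.43 and 7.31 with Dcp2, 7.26, 7.56 and 7.32 with DcpS and 7.51, 7.56 and 7.74 with GAPDH siRNA. The reference arrays of OGFR were at 6.26, 6.90 and 7.01, the widest spread of the 10 genes. OGFR was higher by 0.90, 0.68, 0.66 and 0.88 with LOC550643, Dcp2, DcpS and GAPDH siRNA (SE 0.16 each), and by 0.67, 0.45, 0.42 and 0.65 without non-silencing replicate 1, a drop of over 1.5 times with Dcp2 and DcpS siRNA. MAPK6 measured 6.05, 6.0 and 6.13 with LOC550643, 6.24, 5.99 and 6.25 with Dcp2, 6.10, 6.08 and 6.0 with DcpS and 6.07, 5.74 and 5.87 with GAPDH siRNA, against 5.23, 5.32 and 5.61 in the reference. The lowest MAPK6 array of a targeting siRNA, GAPDH replicate 2, lay 0.13 above the highest reference array. Its differences were 0.67, 0.77, 0.67 and 0.51 (SE 0.11 each).

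For the protein handling genes, EMC6 measured 7.67, 7.63 and 7.79 with LOC550643, 7.79, 7.74 and 7.71 with Dcp2, 7.49, 7.68 and 7.65 with DcpS and 7.90, 7.98 and 7.90 with GAPDH siRNA, and 7.05, 7.16 and 7.17 with non-silencing siRNA. Its GAPDH arrays lay above all 12 other arrays. The EMC6 differences were 0.57, 0.62, 0.48 and 0.80 (SE 0.08 each). KLHDC10 measured 8.79, 8.67 and 8.83 with LOC550643, 8.58, 8.73 and 8.97 with Dcp2, 8.45, 9.01 and 8.69 with DcpS and 8.93, 8.99 and 8.87 with GAPDH siRNA. The KLHDC10 reference arrays were at 7.79, 8.18 and 8.34, so that DcpS replicate 1 lay only 0.11 above the highest of them, the narrowest gap of the 10 genes. KLHDC10 was higher by 0.66, 0.66, 0.61 and 0.82 (SE 0.15 each), and by 0.50, 0.50, 0.45 and 0.67 without non-silencing replicate 1.

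Non-silencing replicate 1 was the lowest of the 3 reference arrays for 7 of the 10 genes, and for 36.4% of all genes. Replicate 3 was the highest for 7 of the 10, and the share of all genes for that was not computed. Without replicate 1 the 40 differences lay between 0.35 and 1.32, at 64.7% to 103% of their values with it, and all kept their sign. The part of that array's position on the axis in these differences was not tested beyond this.

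**Figure D2:**
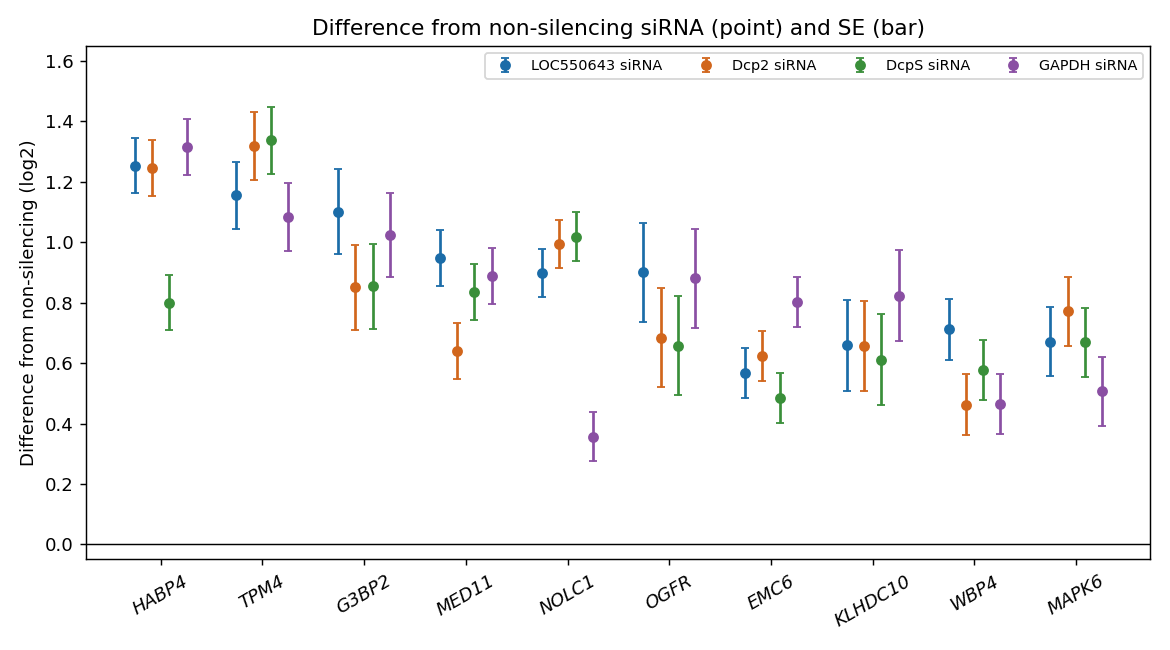
Difference from non-silencing siRNA in log2 units (points, vertical axis) with the model's standard error (bars) for the 10 genes and 4 targeting siRNAs. All 40 differences lie between 0.36 and 1.34, and the 4 points of a gene share the non-silencing arrays.

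Comparisons among the 4 targeting siRNAs asked whether the 10 genes reached the same level with each. The choice of genes did not use these differences, but it used the same arrays and asked the lowest of the 4 means to lie above the reference. That sets a floor for the 4 means and no ceiling, and its effect on the differences among them was not tested. HABP4 (adjusted p = 0.00418) and NOLC1 (adjusted p = 0.000176), 2 of the 10, differed among the 4 siRNAs by limma's F test, against 12% of all genes. Over the 6 pairs of siRNAs, 7 of the 60 differences passed an adjusted p of 0.05, against 4.68% over all genes, and these 7 belonged to HABP4, NOLC1 and EMC6. At an unadjusted p under 0.05 there were 15, against 17.6% over all genes, with others from MED11, WBP4, EMC6, TPM4 and MAPK6. The within-group SD of the 10 genes had a median of 0.12, against 0.15 over all genes, and since the genes were chosen with this model, the standard errors may be too small.

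HABP4 was lower with DcpS siRNA than with each other targeting siRNA. The difference was 0.45 log2 units for LOC550643 minus DcpS (SE 0.09, limma adjusted p = 0.00705), 0.44 for Dcp2 minus DcpS (adjusted p = 0.00916) and -0.51 for DcpS minus GAPDH (adjusted p = 0.00289). HABP4 was the only one of the 10 genes called between LOC550643 and DcpS siRNA, where 6.40% of genes were called, and between Dcp2 and DcpS siRNA, where 5.64% were. Among LOC550643, Dcp2 and GAPDH siRNA its differences were 0.01, -0.06 and -0.07, none called, with 95% intervals that reached at most -0.27.

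NOLC1 was lower with GAPDH siRNA than with each other targeting siRNA. LOC550643 minus GAPDH was 0.54 (SE 0.08, limma adjusted p = 0.00102), Dcp2 minus GAPDH 0.64 (adjusted p = 0.000406) and DcpS minus GAPDH 0.66 (adjusted p = 0.000148). It was the only one of the 10 genes called between LOC550643 and GAPDH siRNA (4.08% of all genes) and between Dcp2 and GAPDH siRNA (2.79%). The differences among LOC550643, Dcp2 and DcpS siRNA were -0.09, -0.12 and -0.03, none called, with 95% intervals from -0.29 to 0.14. The 6 calls of HABP4 and NOLC1 held in all 22 alternative settings.

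EMC6 was lower with DcpS than with GAPDH siRNA by -0.32 (SE 0.08, limma adjusted p = 0.0327). With HABP4 lower and NOLC1 higher, this made 3 of the 10 genes called between DcpS and GAPDH siRNA, against 5.98% of all genes. The EMC6 call was lost without DcpS replicate 1 or 3 or GAPDH replicate 1, 2 or 3 (adjusted p 0.053 to 0.127, differences -0.26 to -0.34).

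Between LOC550643 and Dcp2 siRNA limma called 0 of the 10 genes, against 3.20% of all genes, and 2 had an unadjusted p under 0.05. The nearest was MED11, higher with LOC550643 siRNA by 0.31 (95% interval 0.11 to 0.50, adjusted p = 0.0886), with arrays of the 2 groups that did not overlap, as for 22.4% of all genes. When the dimmer genes were left out, which left 7442 genes to test, MED11 was called (adjusted p = 0.0408). The remaining 7 genes, TPM4, G3BP2, MED11, OGFR, KLHDC10, WBP4 and MAPK6, were called in no pair of targeting siRNAs, with 95% intervals that reached at most 0.59 in size. A miss of the threshold does not show that their levels were equal.

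**Figure D3:**
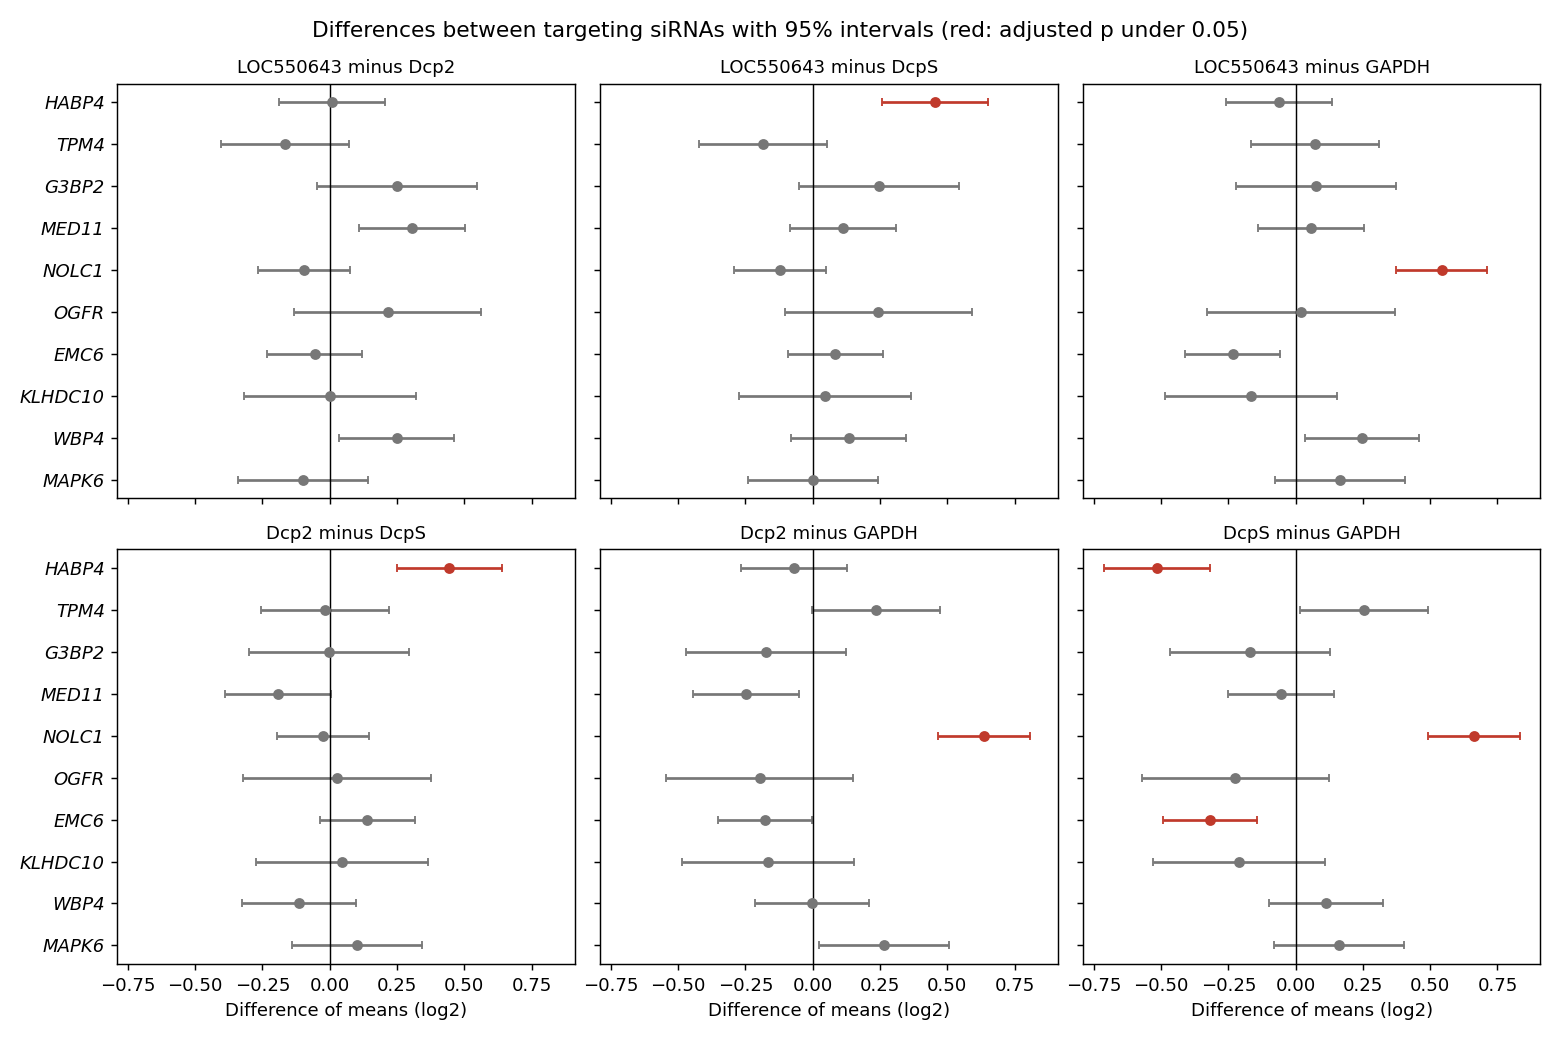
Difference of group means in log2 units (horizontal axis) between each pair of targeting siRNAs for the 10 genes, with 95% intervals, red where the limma adjusted p is under 0.05. The called differences are 3 of HABP4, all with DcpS siRNA lower, 3 of NOLC1, all with GAPDH siRNA lower, and 1 of EMC6.

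Paralogs of the 10 genes, which were not chosen by these differences, were then read in the same comparisons, with tests against non-silencing siRNA. Of 11 paralogs, 9 were measured, and SERBP1 and TPM3 had no named probe set. Limma called none of the 9 higher with any of the 4 siRNAs. As 0.658% to 1.76% of all genes were called higher, 0 of 9 does not set them apart. At an unadjusted p under 0.05, 0 were higher, against 6.12% to 8.04% of all genes. Lower were 2, 3, 2 and 1 with LOC550643, Dcp2, DcpS and GAPDH siRNA, against 5.97% to 8.24% of all genes. G3BP1, the other stress granule scaffold, was at 8.51, 8.45 and 8.63 with LOC550643, 8.44, 8.50 and 8.49 with Dcp2, 7.80, 7.87 and 8.09 with DcpS, 8.52, 8.49 and 8.47 with GAPDH and 8.40, 8.45 and 8.48 with non-silencing siRNA. It fell by 0.52 log2 units with DcpS siRNA (SE 0.09, limma adjusted p = 0.00363), where its paralog G3BP2 was higher by 0.85, and its differences with the other siRNAs were 0.09, 0.03 and 0.05. When only the DcpS and reference arrays were fitted, the G3BP1 adjusted p was 0.0729.

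OGFRL1, the paralog of OGFR, fell by 0.59 with LOC550643 siRNA (SE 0.08, limma adjusted p = 0.0024), where OGFR was higher by 0.90. With Dcp2, DcpS and GAPDH siRNA its differences were -0.18, 0.11 and 0.05. KLHDC2, a CUL2 substrate receptor like KLHDC10, fell by 0.48 with Dcp2 siRNA (SE 0.10, adjusted p = 0.0312), a call lost when any of Dcp2 replicates 1 and 2 and non-silencing replicates 1 and 2 was left out, and in a fit of only these 6 arrays. KLHDC1 and KLHDC3 had differences between -0.15 and 0.14 with the 4 siRNAs and no call. The group means of KLHDC1 lay between 2.68 and 2.89, below the array medians of 4.01 to 4.08, so a change in it may not be visible. The tropomyosins TPM1 and TPM2 had negative differences with all 4 siRNAs, from -0.04 to -0.27, and the kinases MAPK4 and MAPK15 likewise, from -0.03 to -0.27, none called.

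**Figure D4:**
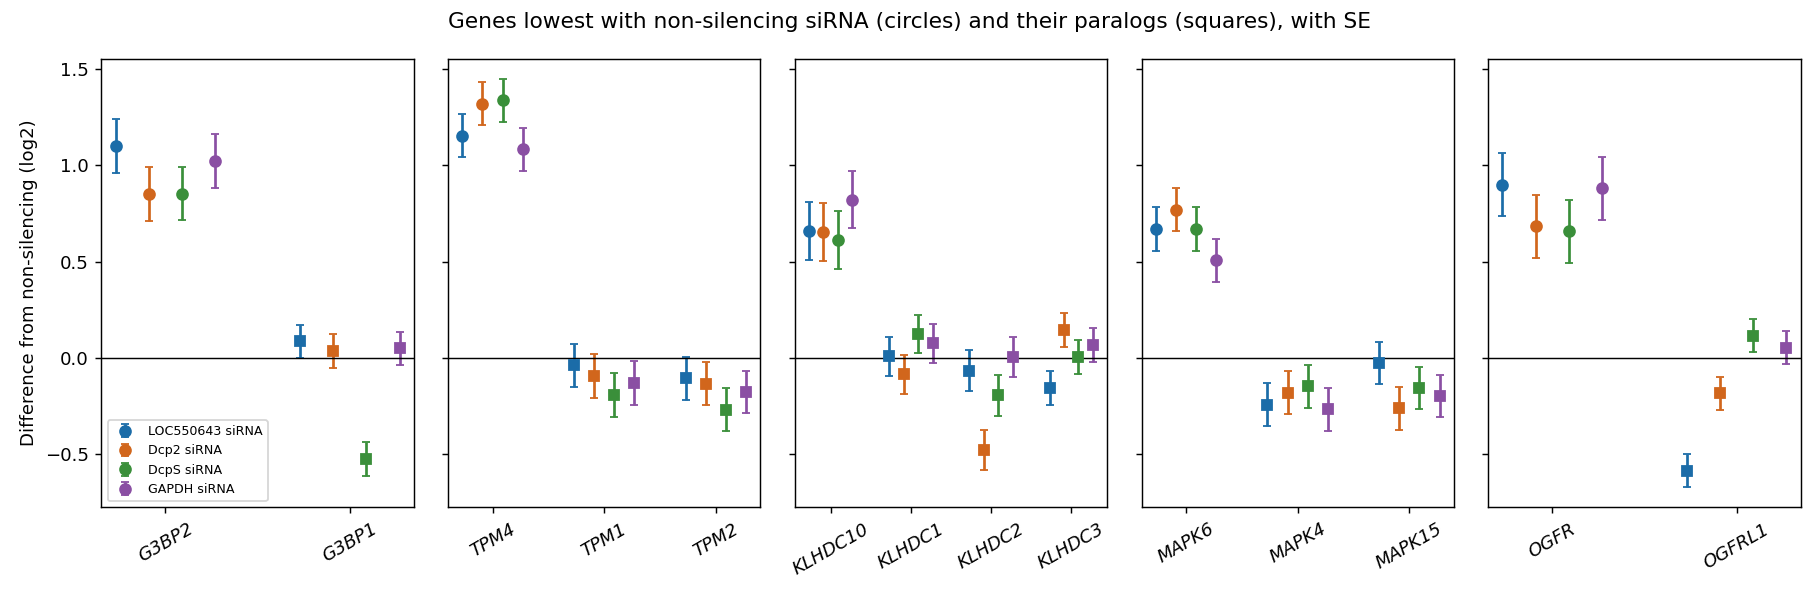
Difference from non-silencing siRNA in log2 units with the standard error, for 5 of the 10 genes (circles) and their measured paralogs (squares), by targeting siRNA. The circles lie between 0.51 and 1.34, and the squares between -0.59 and 0.14.

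Partners of the 10 genes in complexes and pathways were given by lists, together with the paralogs 139 genes in all, of which 102 were measured. With LOC550643 siRNA 0 of the 102 were called higher and 2 lower by limma and with Dcp2 siRNA 2 and 1. With DcpS siRNA the counts were 3 and 3, and with GAPDH siRNA 2 and 2. At an unadjusted p under 0.05 they were 8 and 11 with LOC550643, 21 and 11 with Dcp2, 15 and 10 with DcpS and 8 and 11 with GAPDH siRNA. Over all genes the unadjusted shares higher and lower were 6.48% and 5.97%, 8.02% and 8.24%, 8.04% and 8.06%, and 6.12% and 7.52%, in the same order of siRNAs. The shares of list genes called at an adjusted p under 0.05, 1.96%, 2.94%, 5.88% and 3.92%, stood beside 1.57%, 1.98%, 3.61% and 2.0% of all genes called in either direction. Both kinds of count moved with single arrays. Over all genes, leaving out 1 array gave 79 to 258 calls with LOC550643 siRNA in place of 233, 41 to 393 with Dcp2 in place of 294, 276 to 527 with DcpS in place of 538 and 139 to 305 with GAPDH siRNA in place of 297. The lowest counts came without non-silencing replicate 1 (LOC550643 and Dcp2) or 2 (DcpS and GAPDH). For Dcp2 siRNA the count of list genes was 0 when any of Dcp2 replicates 1 and 2 and non-silencing replicates 1 and 2 was left out, 1 without Dcp2 replicate 3, 5 without DcpS replicate 1 and 6 without non-silencing replicate 3. For DcpS siRNA it was 3 without DcpS replicate 2 or 3, 2 without non-silencing replicate 1 and 1 without non-silencing replicate 2. For GAPDH siRNA it lay between 0 and 2 without each array other than DcpS replicate 1, and was 4 without that one.

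Of 27 measured Mediator subunits other than MED11, MED24 fell by 0.55 with LOC550643 (adjusted p = 0.00402) and by 0.40 with DcpS siRNA (adjusted p = 0.0133). MED30 rose by 0.60 with Dcp2 and 0.56 with DcpS siRNA (adjusted p = 0.0265 and 0.0192), MED21 rose by 0.57 with Dcp2 and MED4 by 0.44 with DcpS siRNA, and MED12 and MED1 fell by 0.55 and 0.40 with GAPDH siRNA. None of the 27 was called with all 4 siRNAs, where 0.101% of all genes were called higher and 0 lower. MED11 was chosen with such calls, so this does not set it apart from the 27. The median difference of the 27 was 0.12, 0.10, 0.07 and 0.04 with LOC550643, Dcp2, DcpS and GAPDH siRNA. Only the MED24 call with LOC550643 siRNA held without each array in turn and when only 6 arrays were fitted. MED24 with DcpS siRNA was lost without DcpS replicate 3 or non-silencing replicate 2, and the MED30 calls when non-silencing replicate 1 or 2, any Dcp2 replicate (with Dcp2 siRNA) or DcpS replicates 2 and 3 in turn (with DcpS siRNA) were left out. The calls of MED1, MED4, MED12 and MED21 were lost without at least 4 of the 15 arrays each, non-silencing replicates 1 and 2 among them.

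Of the 8 other subunits of the endoplasmic reticulum membrane complex, EMC7 rose by 0.33 with DcpS and 0.36 with GAPDH siRNA (limma adjusted p = 0.0423 and 0.0404), and the others were not called. Both EMC7 calls were lost without any 1 non-silencing array and without most other arrays. In the same comparisons EMC6 was higher by 0.48 and 0.80. Of 10 measured small nucleolar ribonucleoprotein and nucleolar genes, the partners of NOLC1, only NOP10 was called, with GAPDH siRNA (0.39, adjusted p = 0.0437), where NOLC1 had its smallest difference. The NOP10 call was lost without most single arrays, including non-silencing replicates 1 and 2.

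Of 9 measured stress granule genes G3BP1 was the only one called, and the median difference of the list with DcpS siRNA was -0.16. Among 7 measured actin filament genes the tropomodulin TMOD2 fell by 0.63 with DcpS siRNA (adjusted p = 0.0188), a call lost when any of DcpS replicates 1 and 2 and non-silencing replicates 1 and 2 was left out. Among 8 measured CUL2 ligase genes KLHDC2 was the only one called, and among 4 measured opioid growth factor genes OGFRL1 was. Limma called 0 of 15 measured spliceosome genes, 0 of 6 ERK3 signalling genes and 0 of 6 genes of ribosome hibernation with any siRNA. At an unadjusted p under 0.05, the spliceosome list had 0 higher and 4 lower with LOC550643 siRNA and 5 higher and 2 lower with Dcp2 siRNA. With Dcp2 siRNA the 6 ribosome hibernation genes had 3 higher and 1 lower, and the 27 Mediator subunits 9 and 2. The other lists had at most 2 higher with Dcp2 siRNA. Over all genes the shares higher and lower were 6.48% and 5.97% with LOC550643 and 8.02% and 8.24% with Dcp2 siRNA.

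Nearest protein-coding neighbours on the chromosome were measured for 10 of 20 positions. Limma called 0 of these 10 higher or lower with any siRNA, against 1.57% to 3.61% of all genes, so 0 of 10 does not set them apart. At an unadjusted p under 0.05, 1 was higher and 0 lower with LOC550643 siRNA and 2 and 1 with Dcp2 siRNA. With DcpS and with GAPDH siRNA the counts were 1 and 2. Over all genes the unadjusted shares were 6.12% to 8.04% higher and 5.97% to 8.24% lower. Non-silencing siRNA gave the lowest of the 5 group means for 2 of these 10, ZNF367 beside HABP4 and ELF1 beside WBP4, against 17.3% of all genes. ZNF367 differed by 0.39, 0.35, 0.24 and 0.53 with LOC550643, Dcp2, DcpS and GAPDH siRNA (limma adjusted p 0.201 to 0.614). ELF1 differed by 0.22, 0.39, 0.40 and 0.03 in the same order of siRNAs (limma adjusted p 0.0618 to 0.947).

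Other genes had the same pattern. In all, 15 genes were called higher than non-silencing with all 4 siRNAs, the 10 described and C6orf136, CDK9 (the kinase of the elongation factor P-TEFb), MTM1 (a phosphoinositide phosphatase), STX12 (a syntaxin) and UBE3A (a ubiquitin ligase). No gene was called lower with all 4 (limma), and 54 were lower at an unadjusted p under 0.05 in all 4. Just inside the threshold among the 10 genes were KLHDC10 and OGFR, whose largest adjusted p over the 4 comparisons was 0.0372 and 0.0425. Just outside it were NUDCD3 (0.0547), RIT1 (0.0656) and BICD2 (0.07), with smallest differences of 0.39, 0.53 and 0.56. MTM1 was higher by 1.15 with DcpS siRNA and by 0.50, 0.41 and 0.60 with LOC550643, Dcp2 and GAPDH siRNA, and CDK9 by 0.49, 0.45, 0.48 and 0.38 with LOC550643, Dcp2, DcpS and GAPDH siRNA.

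Likeness was measured as Pearson's correlation, over the 15 arrays, with the mean of the 10 genes after each was centred. CDK9 (0.92) and UBE3A (0.92) came first, then ARMC1 (0.91), the phosphate exporter gene XPR1 (0.91), the small GTPase gene RIT1 (0.91), SRPRA, a subunit of the signal recognition particle receptor (0.90), the dynein adaptor gene BICD2 (0.89), the autophagy receptor gene TAX1BP1 (0.89), the helicase gene DDX24 (0.89) and TRIP10 (0.89). These values rest on the distance of the 3 non-silencing arrays from the rest. Within the 12 targeting arrays the correlations of the same genes were lower, from 0.22 (TRIP10) to 0.80 (DDX24), with CDK9 at 0.30 and UBE3A at 0.29. All arrays share the normalization, and the correlations are descriptions.

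Within groups, 33 of the 45 pairs of the 10 genes had a positive correlation of deviations from the group means. The median over the 45 pairs was 0.27 and the range -0.83 to 0.71. No share over pairs of all genes was computed, so these values are a description. The mean deviation of the 10 genes was -0.18, 0.05 and 0.12 on the non-silencing arrays, which were used to choose them. On the other arrays it lay between -0.06 and 0.05. Set against the mean of the other 9 over all arrays, TPM4 and G3BP2 (both 0.94) were the most alike and NOLC1 (0.74) the least. These correlations rest on the distance of the non-silencing arrays from the rest, which was used to choose the genes. They therefore do not show whether the genes vary together among the targeting siRNAs, and values within the targeting arrays alone are not given for them. The order of the targeting siRNAs differed between genes, and most neighbours in these orders did not differ past the threshold. LOC550643 siRNA gave the highest mean for 4 genes, GAPDH siRNA for 3, DcpS siRNA for 2 and Dcp2 siRNA for 1, while DcpS siRNA gave the lowest targeting mean for 4, Dcp2 and GAPDH siRNA for 3 each and LOC550643 siRNA for 0.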

How the data were processed

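Values were the authors' deposited log2 probe set summaries of 15 arrays. The log base was inferred from their range. RMA (background correction, quantile normalization and summarization) and oligo were used, per the submitters' processing notes, with versions, probe set definition and genome build not given in the sources used here. Quantile normalization hides a shift of all transcripts. No detection calls were used, and 3 arrays a group limit the precision.

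Of 53617 probe sets, 16098 had 1 gene symbol, 0 several and 37519 were unnamed here. All 16098 matched RefSeq by gene ID, and 0 symbols changed. The probe set with the highest mean represented each of 779 genes with more than 1, which left 14884 genes.

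Limma 3.58.1 in R 4.3.3 fitted 1 mean per group over all 15 arrays, with 10 residual degrees of freedom, and two-sided moderated tests with Benjamini-Hochberg adjustment over the 14884 genes of a comparison. Genes under an adjusted p of 0.05 were called. Figures used matplotlib 3.10.9. The 10 genes, lists and tests were chosen with earlier results of these data known. Named were the 10 genes, their paralogs, list genes called with 2 or more siRNAs and up to 4 other called genes a list (largest change first), the genes called higher with all 4 siRNAs, and the 10 most alike in pattern. Genes just outside the threshold and neighbours were added after their values were seen. In simulated data, noise was normal with each gene's moderated variance from the model. It was independent between genes, so it held no array effects shared by genes. For LOC550643 against DcpS over 14884 genes, 95.0% of changes of 1 log2 unit and 48.0% of changes of 0.5 were recovered. Of the calls, 5.92% were false, and these rates may not hold where an array shifts many genes together. Alternatives were a replicate block, quantile normalization, median centring, leaving out dim genes, the mean of probe sets, a trended robust variance, fits of only the 12 targeting or the 6 compared arrays, and leaving out each array.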

Additional observations from a re-analysis of the deposited data

How the results depend on the processing

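The counts of the 10 genes called among the targeting siRNAs kept their values or stayed within 1.5 times of them in every alternative run, except that 1 gene in place of 0 was called between LOC550643 and Dcp2 siRNA when dim genes were left out. Leaving out single arrays gave 2 to 3 called genes between DcpS and GAPDH siRNA, and the main count in the other comparisons. Most alternatives leave the differences of the 10 genes from non-silencing siRNA as they are by construction, and without non-silencing replicate 1 that of OGFR with DcpS siRNA went from 0.66 to 0.42.

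Counts of list genes were less steady. With Dcp2 siRNA the count of 3 became 10 when dim genes were left out, 7 after quantile normalization, 7 with a trended robust variance and 0 in a fit of the 6 arrays compared, and it ranged from 0 to 6 without single arrays. With DcpS and GAPDH siRNA the counts of 6 and 4 both became 0 in such a fit, and ranged from 1 to 5 and from 0 to 4 without single arrays. With LOC550643 siRNA the count of 2 became 4 without dim genes and stayed at 2 without single arrays. The cause was not tested, beyond the fewer genes or arrays in these fits.

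With the replicate number as a block the counts of the 10 genes were 0, 1, 1, 1, 1 and 3 in the 6 pairs of siRNAs and 2 in the F test, as without it, and those of list genes were 3, 4, 6 and 5 with LOC550643, Dcp2, DcpS and GAPDH siRNA. The numbers do not pair the samples by the labels, and deviations of arrays with the same number correlated over 0.1 in 9 of 30 pairs, against 14 of 60 pairs with different numbers.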
